A study of Vitis vinifera with 12 samples.

Results

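The expression of 76 genes that stood highest in the oldest of 4 ages of grape berry was followed library by library. They were taken from 22580 gene IDs by a rule on the same values that are described here. The mean of log2(FPKM + 1) in 80-day fruit had to lie at least 1.5 above the highest of the 3 earlier means. Each 80-day value had to lie above each of the 9 earlier values, and the highest age mean had to be from 5 to under 1000 FPKM, the unit of the table, in which sequenced fragments are scaled by transcript length and library size. The rise to 80 days is therefore how the genes were chosen and not a finding about them.

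The libraries come from fruit of Vitis vinifera cultivar Victoria, a white-berried table grape, collected 40, 50, 60 and 80 days after full bloom. Each age has 3 libraries, lettered a to c. The labels name no treatment, genotype or berry compartment, so all libraries share the cultivar and the tissue and differ by age. The labels' protocols state that biological replicates were extracted separately and then pooled. Whether the lettered libraries of an age stem from separate berries is not settled, so a p-value here reflects the scatter among libraries, some or all of which may be technical. The series addresses how transcripts change as the berry develops.

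A grape berry grows in a first phase of cell division and acid storage, pauses, and then softens, gains sugar and enters ripening at a stage called véraison. Ripening is accompanied by large changes in transcripts for cell walls, sugar transport, defence proteins and aroma. In whole fruit, a transcript can change because cells make more of it or because the share of skin, flesh, seed or vascular tissue changes, and a bulk measurement cannot tell these apart. The deposited table gives no gene names, and for 0 of the 76 IDs was there an entry in the reference gene table. The genes are therefore given by ID with no function stated, and no tissue marker could be checked.

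The libraries that departed most from their age mean were 40-day library c and 80-day library a. Their deviations from the age mean had SDs of 0.292 and 0.305 on the log2 scale over the 14743 tested genes (at least 1 FPKM in at least 3 libraries), against 0.189 to 0.265 in the others. Correlations within an age were 0.971 to 0.990. The absolute depth is unknown. A rough relative depth, read from the commonest ratio of low values to those of 40-day library a, was 0.859 to 1.77. Results that rest on single libraries are given with and without them.

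The 76 genes went from a small share of the transcript pool to a larger one. They held 0.0712% ± 0.00088 of the summed FPKM in 40-day fruit (SD, n = 3 at each age), 0.0942% ± 0.014 in 50-day fruit, 0.115% ± 0.0051 in 60-day fruit and 0.586% ± 0.11 in 80-day fruit. The 3 libraries of 80 days were unequal, with 0.693% in library a, 0.468% in library b and 0.595% in library c. The median gene of the group had a mean of 2.53 FPKM in 40-day fruit, 4.21 in 50-day fruit, 5.28 in 60-day fruit and 39.5 in 80-day fruit. Over all tested genes the median was 14.1, 13.03, 12.6 and 11.9 FPKM at the same ages. The 8 most abundant of the 76 made up 53.6% of the group's summed FPKM in 80-day fruit.

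**Figure D1:**
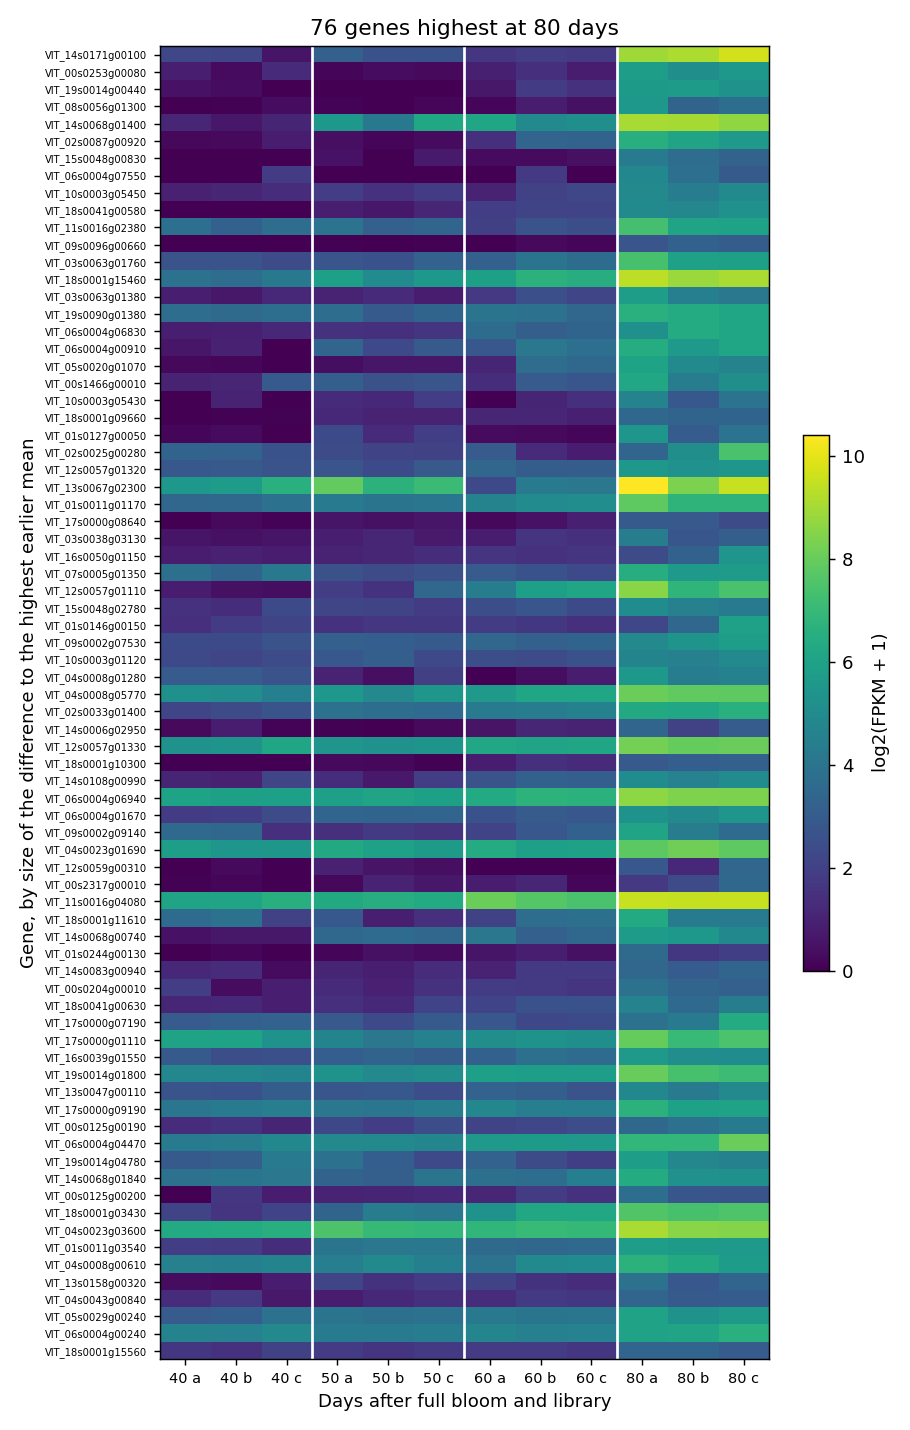
Each row is 1 of the 76 genes and each column 1 of the 12 libraries, ordered by age and letter, with colour giving log2(FPKM + 1). Rows run from the largest difference between the 80-day mean and the highest earlier mean (6.45) at the top to the smallest (1.50) at the bottom, and the 80-day columns are the brightest in each row by choice of the genes.

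The working name of the group, genes switched on after 60 days, fitted the values only in part. Only 6 of the 76 stayed under 1 FPKM in each of the 9 earlier libraries, and these 6 passed the filter on low values through the 80-day libraries alone. Others had only 1 or 2 earlier libraries at 1 FPKM or more and so also needed the 80-day libraries to pass. These were VIT_00s0253g00080, VIT_19s0014g00440, VIT_06s0004g07550, VIT_14s0006g02950, VIT_18s0001g10300 and VIT_00s2317g00010. In 59 genes no earlier library was listed at 0, but some of these values were as good as 0. In VIT_06s0004g07550, 7 of the 9 earlier libraries were under 0.01 FPKM. The mean was under 1 FPKM in 29 genes in 40-day fruit, 16 in 50-day fruit and 12 in 60-day fruit. Most of the group thus had a mean of 1 FPKM or more in 60-day fruit, and the genes are called raised in 80-day fruit here.

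The size of the step was mostly modest. The difference between the 80-day mean and the highest earlier mean had a median of 1.96 on the log2 scale (quartiles 1.72 and 2.46, lowest 1.50, highest 6.45). It reached 2 in 35 genes, 3 in 9 and 4 in 3. As a ratio of mean FPKM the median was 4.82-fold, from 2.93-fold to 102-fold. The 80-day mean itself was between 5.42 and 809 FPKM, with 16 genes at 100 FPKM or more.

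The gene with the largest step, VIT_14s0171g00100, was listed at 3.68, 3.56 and 0.517 FPKM in libraries a, b and c in 40-day fruit. Its values were 8.18, 5.10 and 5.09 FPKM in 50-day fruit, 2.10, 2.73 and 2.44 in 60-day fruit, and 487, 565 and 818 in 80-day fruit. All 3 libraries of 80 days were far above the rest, 102-fold over the 50-day mean. The earlier levels were uneven: the 50-day mean was above the 40-day one (1.13 ± 0.38 SE in log2 units, limma adjusted p = 0.031), and the 60-day libraries lay below those of 50 days. That call was lost without 40-day library c or 50-day library a (limma adjusted p = 0.063 and 0.11). VIT_00s0253g00080 was at 0.847, 0.234 and 1.38 FPKM in 40-day fruit, 0.1, 0.267 and 0.201 in 50-day fruit, 0.884, 1.67 and 0.724 in 60-day fruit, and 55.3, 35.5 and 45.3 in 80-day fruit. It was close to off through 60 days and its 80-day libraries lay close together.

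VIT_19s0014g00440 had values of 0.423, 0.273 and 0 FPKM in 40-day fruit, and under 0.01 FPKM in each library of 50 days. At 60 days it was at 0.587, 2.54 and 1.76 FPKM, and in 80-day fruit at 49.5, 52.0 and 39.2. The 60-day libraries lay above all earlier ones, but the lowest of them (0.587 FPKM) was close to the highest of 40 days (0.423), and both were under 1 FPKM. Only 2 of its earlier libraries reached 1 FPKM, so it passed the filter on low values only through the 80-day libraries. Its difference between 50 and 60 days (1.32 ± 0.26 SE in log2 units) is therefore given without a test.

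The 80-day libraries of VIT_08s0056g01300 were unequal, with 45.4 FPKM in library a against 9.35 in library b and 12.6 in library c. Its 9 earlier values were between 0 and 0.791 FPKM. VIT_15s0048g00830 was listed at 0 in all 3 libraries of 40 days, and its other 6 earlier values did not pass 0.681 FPKM. It had 18.5, 12.1 and 8.89 FPKM in 80-day fruit. In VIT_06s0004g07550 a single library of 40 days (2.47 FPKM in library c) and a single library of 60 days (2.39 in library b) held a signal, and the other 7 earlier libraries were under 0.01 FPKM. Its 80-day values were 28, 13.1 and 6.67 FPKM.

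VIT_09s0096g00660 and VIT_12s0059g00310 were listed at 0 in most earlier libraries, 5 of the 9 each. For VIT_09s0096g00660 the highest earlier value was 0.192 FPKM, and the 80-day libraries were at 5.73, 8.42 and 7.47. The 80-day values of VIT_12s0059g00310 were 6.19, 1.23 and 9.97 FPKM, of which the lowest was near the highest earlier value, 0.942 in library a in 50-day fruit. An exact 0 in such a table can be a failed estimate.

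**Figure D2:**
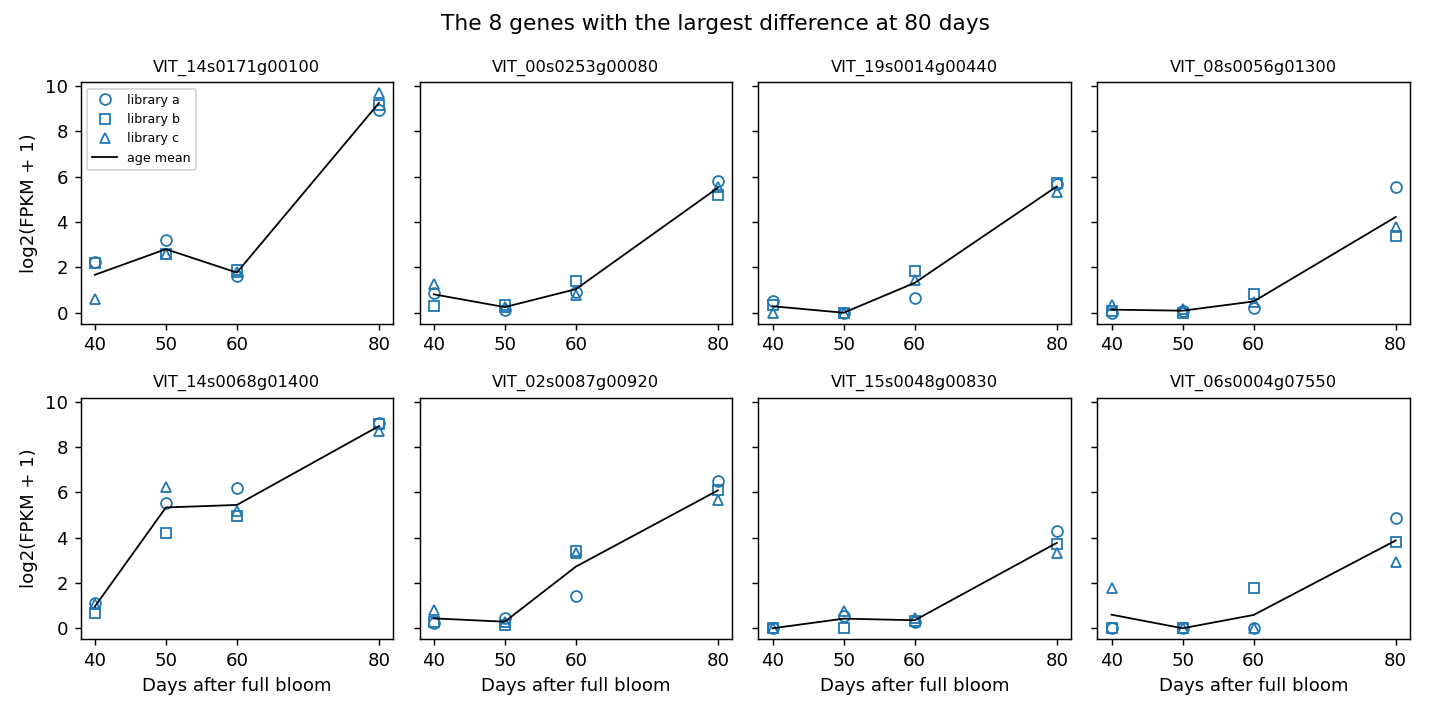
For the 8 genes with the largest difference, log2(FPKM + 1) is plotted against days after full bloom, with 1 symbol per library and a line through the age means. VIT_14s0068g01400 and VIT_02s0087g00920 had left their lowest level before 80 days, while VIT_15s0048g00830 and VIT_08s0056g01300 stayed under 1 FPKM through 60 days.

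Abundance in 80-day fruit and size of step picked different genes. Of the 8 with the highest 80-day means, VIT_14s0171g00100 and VIT_14s0068g01400 were also among the 8 largest steps. VIT_11s0016g04080 was at 65.8, 66.9 and 94.4 FPKM in 40-day fruit, 79.5, 89.6 and 81.9 in 50-day fruit, 264, 203 and 170 in 60-day fruit, and 741, 715 and 748 in 80-day fruit. It rose between 50 and 60 days (1.31 ± 0.16 SE in log2 units, limma adjusted p = 0.00067) from an already high level, and its 80-day libraries were the most even among these 8. VIT_13s0067g02300 had the highest 80-day mean, 809 ± 521 FPKM (SD, n = 3), with 1359 FPKM in library a, 322 in library b and 747 in library c. The remaining 4 had means of 557 ± 107 (VIT_18s0001g15460), 424 ± 101 (VIT_04s0023g03600), 354 ± 41.8 (VIT_06s0004g06940) and 269 ± 28.8 FPKM (VIT_12s0057g01330). At 40 days these 4 stood at 14.7 ± 2.58, 86.5 ± 5.68, 60.2 ± 4.10 and 49.2 ± 16.4 FPKM.

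What the rule did not use is how the genes moved among 40, 50 and 60 days. The rule caps the earlier means but does not set their order. With limma, a model holding 1 mean for each age was fitted over the 12 libraries together, and a gene was called at a Benjamini-Hochberg adjusted p under 0.05 over all 14743 tested genes and a difference of at least 1 on the log2(FPKM + 1) scale. The fit pools the scatter of all ages, so each SE and p-value also carries the 80-day scatter. That scatter had a median SD of 0.43 in the group and 0.17 over tested genes. A wide 80-day scatter makes an earlier call harder to reach, so calls and their absence are not free of values the rule used. In 43 of the 76 genes (56.6%, against 80.1% of tested genes) no pair of earlier ages was called. These include the 6 genes under 1 FPKM in each earlier library, whose earlier means differ by less than 1 on this scale, so that no call was possible for them. The other 37 are among 70 for which one was. In 27 genes only rises were called (35.5%, against 6.65% of tested genes), in 5 only falls (6.58%, against 12.5%), and in 1 both (1.32%, against 0.705%). The 27 include VIT_19s0014g00440 and VIT_18s0001g10300, which passed the filter on low values only through the 80-day libraries. The 50-day mean was above the 40-day one and the 60-day mean above the 50-day one in 38 genes (50%, against 19.4%), and both were below in 5 (6.58%, against 27.1%). The 27 genes with rises only had medians of their age means of 1.11, 6.497, 10.5 and 68.7 FPKM from the youngest to the oldest age. For the 6 with a fall these medians were 12.3, 7.78, 4.80 and 80.7 FPKM, and for the 43 without a call 2.57, 2.97, 3.84 and 25.9 FPKM.

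Rises before 80 days were called in a larger share of the group than of all tested genes in each of the 3 comparisons. At 50 days 13 of the 76 (17.1%) were higher than at 40 days, where 3.44% of tested genes were called higher. From 50 to 60 days 9 (11.8%) were higher, against 2.01% of tested genes. Comparing 60 with 40 days, 25 (32.9%) were higher, against 5.51%. Lower calls numbered 3 (3.95%, against 8.43% of tested genes) at 50 against 40 days and 4 (5.26%, against 10.3%) at 60 against 40 days. At 60 against 50 days there were 3 (3.95%, against 2.31%). The median difference of the group was 0.30, 0.39 and 0.62 on the log2 scale for these 3 comparisons, against -0.07, -0.02 and -0.10 over all tested genes. The group was chosen by its 80-day level, and no test was made of these shares. VIT_19s0014g00440 and VIT_18s0001g10300, which needed the 80-day libraries to pass the filter on low values, are among the genes counted as higher. So are VIT_02s0087g00920, VIT_05s0020g01070 and VIT_01s0127g00050, whose only earlier libraries at 1 FPKM or more were those of the age called higher.

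For 52 genes (68.4%) the highest earlier mean was in 60-day fruit, for 13 in 50-day fruit and for 11 in 40-day fruit. Over all tested genes the highest of these 3 means was in 60-day fruit in 28.3% and in 40-day fruit in 46.5%. From 60 to 80 days 75 of the 76 were called higher, where 2.68% of tested genes were called higher and 6.8% lower. The rule used this contrast, so nothing is read from it. The remaining gene, VIT_18s0001g11610, was at 80.9, 18.8 and 18.6 FPKM in 80-day fruit, and its earlier values were spread from 0.827 to 13.6 FPKM.

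**Figure D3:**
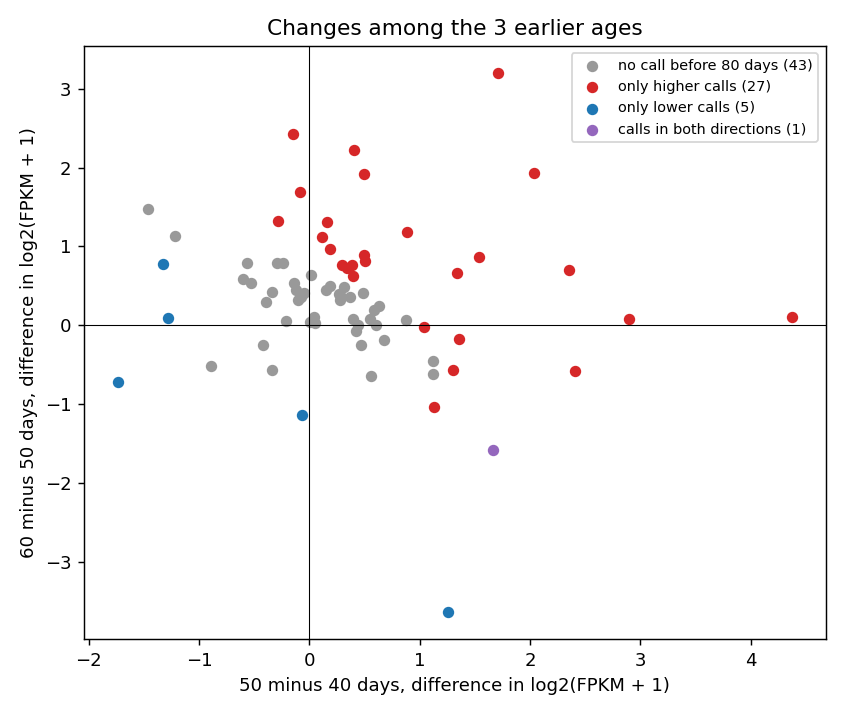
Each point is 1 of the 76 genes, placed by its difference in log2(FPKM + 1) between 50 and 40 days (horizontal) and between 60 and 50 days (vertical), and coloured by the calls among the 3 earlier ages. The 43 genes without a call lie around the centre and the 27 with rises only lie mainly above or to the right of it. The lowest point is VIT_13s0067g02300 at -3.64 on the vertical axis.

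A first course was a rise between 40 and 50 days. VIT_14s0068g01400 was at 1.19, 0.585 and 1.11 FPKM in 40-day fruit, 45.5, 17.7 and 73.7 in 50-day fruit, 71.1, 30.1 and 35.5 in 60-day fruit, and 529, 514 and 414 in 80-day fruit. The 50-day and 60-day libraries overlapped with each other and lay wholly between those of 40 and 80 days (50 minus 40 days, 4.37 ± 0.44 SE in log2 units, limma adjusted p = 3.1e-05). VIT_14s0068g00740 had 0.429, 0.604 and 0.588 FPKM in 40-day fruit, 10.2, 11.5 and 9.70 in 50-day fruit, 16.4, 8.17 and 10.1 in 60-day fruit, and 51.8, 45.3 and 28.3 in 80-day fruit. It too rose before 50 days (2.89 ± 0.24 SE, limma adjusted p = 1.2e-05) and its 60-day mean lay 0.08 ± 0.24 SE from the 50-day one.

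VIT_01s0011g03540 had 2.68, 2.57 and 1.59 FPKM in 40-day fruit, 15.3, 16.5 and 16.9 in 50-day fruit, 11, 9.93 and 10.7 in 60-day fruit and 53.9, 49.8 and 48.1 in 80-day fruit. No libraries of different ages overlapped, and its 60-day values were below those of 50 days (50 minus 40 days, 2.41 ± 0.13 SE, limma adjusted p = 1.2e-06). VIT_06s0004g00910 rose by 2.35 ± 0.38 SE from 40 to 50 days (limma adjusted p = 0.00062). Its means were 0.495 ± 0.474, 6.75 ± 2.90, 11.9 ± 5.25 and 68.7 ± 18.5 FPKM (SD, n = 3) from the youngest to the oldest age. VIT_18s0001g15460, among the most abundant, rose by 1.53 ± 0.25 SE in the same interval (limma adjusted p = 0.00061).

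A second course was a rise between 50 and 60 days that ran on to 80 days. VIT_12s0057g01110 was at 0.793, 0.400 and 0.299 FPKM in 40-day fruit, 2.66, 1.87 and 9.78 in 50-day fruit, 19.5, 58.5 and 70.7 in 60-day fruit, and 377, 111 and 171 in 80-day fruit. Libraries of one age did not overlap with those of another, though within an age they differed several-fold (60 minus 50 days, 3.20 ± 0.59 SE, limma adjusted p = 0.0043). It was also called higher at 50 than at 40 days (1.71 ± 0.59 SE, limma adjusted p = 0.035). That call was lost in 7 of 22 alternatives, among them leaving out any single 40-day library or 50-day library c (limma adjusted p = 0.058 to 0.14). VIT_02s0087g00920 was at 1.67, 9.64 and 9.01 FPKM in 60-day fruit, with no value over 0.725 before, and at 90.4, 66.6 and 49.2 in 80-day fruit (60 minus 50 days, 2.43 ± 0.44 SE). VIT_05s0020g01070 had 1.08, 12.4 and 10.2 FPKM in 60-day fruit, with no value over 0.554 before, and 64.0, 31.0 and 23.9 in 80-day fruit (60 minus 50 days, 2.22 ± 0.58 SE). In these 3 genes library a was the lowest of the 60-day libraries and the highest of the 80-day ones. For VIT_02s0087g00920 and VIT_05s0020g01070 only the 60-day libraries reached 1 FPKM before 80 days. Both passed the filter on low values only through the ages at which they were high, so their differences are given without a p-value.

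VIT_18s0001g03430 was the other of the 2 genes called higher at both earlier steps. Its values were 3.45, 2.05 and 3.23 FPKM in 40-day fruit, 9.13, 20.6 and 17.2 in 50-day fruit, 38.4, 75 and 73.3 in 60-day fruit, and 191, 167 and 188 in 80-day fruit. Both earlier steps passed the test, by 2.04 ± 0.30 SE at 50 against 40 days (limma adjusted p = 0.00032) and 1.94 ± 0.30 SE at 60 against 50 days (limma adjusted p = 0.0020). VIT_05s0020g01070, counted among the 9 genes called higher at 60 than at 50 days, lost that call without any single library of 50 days. It also lost it without library b or c in 60-day fruit.

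A further course was a fall before the rise. VIT_13s0067g02300 was at 46.3, 51.2 and 97.0 FPKM in 40-day fruit, 237, 101 and 134 in 50-day fruit, 3.87, 19.2 and 16.4 in 60-day fruit, and 1359, 322 and 747 in 80-day fruit. The 60-day libraries lay below all others and the 80-day ones above all others. It fell by 3.64 ± 0.61 SE (log2 units) between 50 and 60 days (limma adjusted p = 0.0028). VIT_04s0008g01280 declined earlier, with 6.96, 6.86 and 5.32 FPKM in 40-day fruit and 0.994, 0.357 and 2.95 in 50-day fruit. At 60 days it was at 0.798 FPKM or less, and in 80-day fruit at 46.5, 20.5 and 22.9 FPKM (50 minus 40 days, -1.74 ± 0.39 SE, limma adjusted p = 0.0044).

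VIT_17s0000g01110 and VIT_07s0005g01350 also fell at first. Means of VIT_17s0000g01110 were 55.6 ± 13.5, 21.4 ± 4.38, 36.8 ± 2.67 and 186 ± 58.8 FPKM from the youngest to the oldest age (50 minus 40 days, -1.33 ± 0.24 SE, limma adjusted p = 0.0011). Those of VIT_07s0005g01350 were 13.5 ± 4.17, 4.82 ± 0.38, 5.32 ± 1.49 and 63.1 ± 22.2 FPKM (-1.28 ± 0.26 SE, limma adjusted p = 0.0026). VIT_11s0016g02380 fell between 50 and 60 days by 1.14 ± 0.34 SE in log2 (limma adjusted p = 0.040). VIT_01s0127g00050, after a rise in 50-day fruit that was not called without 50-day library a, fell by 1.58 ± 0.48 SE. Before 80 days only its 50-day libraries reached 1 FPKM, so it passed the filter on low values only through the ages at which it was high. Its differences are therefore given without a p-value. The calls of a fall in these last 2 genes are marginal, as each was lost in 9 of 22 alternatives. The count of falls in this interval was 1 without library a in 40-day fruit, without library a or c in 50-day fruit or without any single library of 60 days. The SEs of both genes pool all ages and include the 80-day scatter, with SDs of 0.75 for VIT_11s0016g02380 and 1.23 for VIT_01s0127g00050 in log2 units.

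At 80 days the group was uneven between libraries. The rule used the mean of these same libraries, which favours genes raised by a single high one, so the shares that follow describe the chosen genes, and nothing is read from their distance to all tested genes. Library a was the highest of the 3 for 53 of the 76 genes (69.7%), where it was highest for 43.1% of tested genes. Library b was highest for 4 (5.26%, against 26.5% of tested genes) and library c for 19 (25%, against 30.1%). The median difference of library a over library b was 0.48 on the log2 scale in the group and 0.02 over all tested genes. The median SD among the 80-day libraries was 0.43 on the log2 scale in the group and 0.17 over tested genes, while at 40, 50 and 60 days it was 0.24, 0.21 and 0.31 in the group against 0.14, 0.15 and 0.13. The rough relative depth of 80-day libraries a and b was 0.986 each, read from 27 and 28 genes. The same value was found for 50-day library b, so the estimate comes in coarse steps and does not show equal depth. The part of depth or tissue make-up in these differences was not tested.

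Library a in 80-day fruit exceeded both others by at least 1 on the log2 scale in 16 genes (21.1%, against 1.06% of tested genes). Among them were VIT_08s0056g01300, VIT_06s0004g07550, VIT_11s0016g02380, VIT_01s0127g00050 and VIT_12s0057g01110, whose values are given above. Library c did so in 6 genes (7.89%, against 0.665%) and library b in none. The 6 were singled out after their values were seen. VIT_02s0025g00280 was at 9.40, 34.6 and 172 FPKM in libraries a, b and c of 80 days, and its highest earlier value was 9.05. VIT_01s0146g00150 had 3.58, 10.4 and 61.6 FPKM and VIT_16s0050g01150 had 4.42, 8.48 and 41.7, with highest earlier values of 3.35 and 1.96. VIT_17s0000g07190 was at 13.8, 19.0 and 84.5 FPKM, VIT_06s0004g04470 at 118, 118 and 259, and VIT_00s2317g00010 at 2.32, 4.19 and 10.4.

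In 5 of these 6 genes library a, the highest for most of the group, was the lowest of the 80-day libraries. Of the 6, 1 had a call among the earlier ages (VIT_06s0004g04470, higher at 60 than at 40 days). Over all tested genes 80.1% had no such call. With 6 genes, whose wide 80-day scatter enters the fit, nothing is read from this count. The place of these 6 in the group hangs on library c: without it 9 of the 76 genes no longer met the rule, and all 6 were among those 9. Without library a in 80-day fruit 15 genes no longer met it, without library b 2. Among these was VIT_13s0067g02300, whose 80-day mean then passed 1000 FPKM. VIT_17s0000g01110 missed the rule without 40-day library c or 80-day library a, VIT_04s0023g03600 without 50-day library c or 80-day library a, and VIT_18s0001g03430 without 60-day library a. Leaving out each of the 12 libraries in turn, 49 of the 76 met the rule every time.

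**Figure D4:**
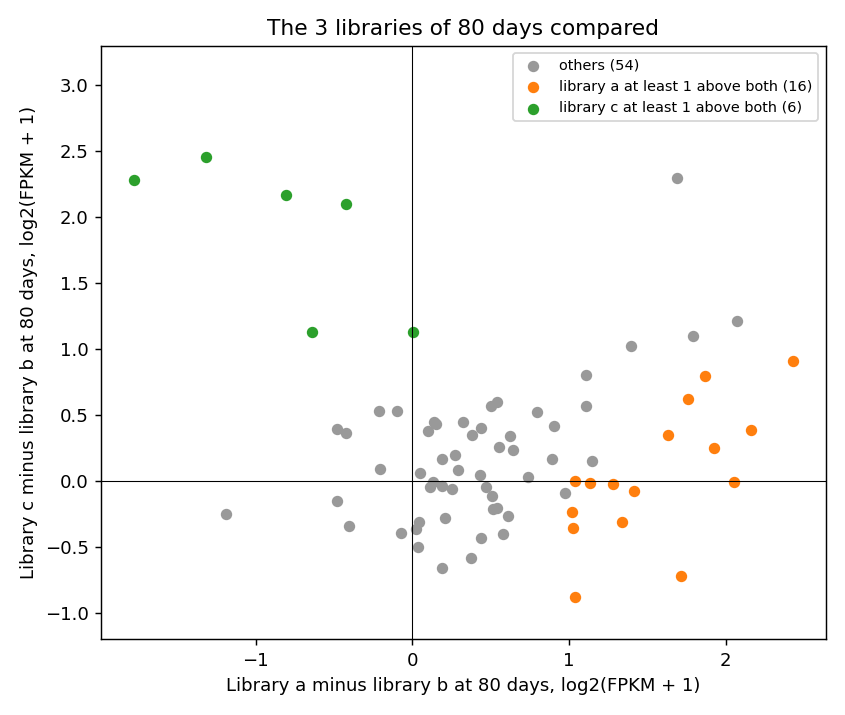
Each point is 1 of the 76 genes, placed by the difference in log2(FPKM + 1) between library a and library b (horizontal) and between library c and library b (vertical) in 80-day fruit. The 16 genes with library a at least 1 above both others lie to the right, the 6 with library c at least 1 above both lie at the top left or at 0, and the other 54 lie mostly near the centre.

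A weaker unevenness was seen in 60-day fruit. Library a was the lowest of the 60-day libraries for 43 of the 76 genes (56.6%, against 38.9% of tested genes), and library b the highest for 34 (44.7%, against 27.6%). Among the 9 genes called higher at 60 than at 50 days, library a was the lowest of the 3 in 7. The same held for 198 of the 297 tested genes with that call (66.7%). At 50 days library b was the lowest for 43 of the 76 (56.6%, against 26.5%). With library a in 60-day fruit left out, 5 of the 76 no longer met the rule.

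The positions of the genes were compared through the IDs, in which the digits after VIT_ name the chromosome in the reference annotation's naming scheme, 00 standing for unplaced sequence. All 76 had IDs of this form, and none was among the 789 IDs called newGene, of which 327 were tested. Members lay on all 19 chromosomes or on unplaced sequence (6 genes). Chromosome 18 held 8 of them (10.5%, against 7.51% of tested genes with such IDs), chromosomes 6 and 14 held 7 each (9.21%, against 5.54% and 6.51%), and chromosomes 7 and 8 held 1 each (1.32%, against 5.80% and 6.48%). With so few genes per chromosome no difference was tested.

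Within 3 places of another member in the order of deposited IDs of one scaffold stood 8 of the 76 genes (10.5%), as 4 pairs. Of all tested genes with such IDs, 2.01% lay within 3 places of a member. There was no run of 3 or more. Whether the genes of a pair are copies of one another, between which reads could be split, was not tested, as no sequences were used here.

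VIT_12s0057g01320 and VIT_12s0057g01330, adjacent on chromosome 12, followed the same course at different levels. Means of the first were 5.98 ± 0.57, 5.40 ± 1.24, 8.23 ± 1.48 and 42.5 ± 4.12 FPKM from 40 to 80 days, and those of the second 49.2 ± 16.4, 40.2 ± 2.43, 70.1 ± 3.18 and 269 ± 28.8 FPKM. Neither changed past the thresholds before 80 days. The next ID before them, VIT_12s0057g01310, was lower in the oldest fruit, with 25.7 ± 4.06 FPKM at 80 days against 54.6 ± 11.3 in 60-day fruit (-1.05 ± 0.21 SE in log2 units, limma adjusted p = 0.0028).

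VIT_18s0041g00580 and VIT_18s0041g00630 lay 2 places apart on chromosome 18. The first was listed at 0 in all libraries of 40 days, with means of 0.861 ± 0.28, 3.20 ± 0.391 and 31.9 ± 5.34 FPKM at the later ages. The second had 1.11 ± 0.266, 2.06 ± 1.03, 4.56 ± 1.07 and 18.3 ± 6.93 FPKM from 40 to 80 days. Both were higher at 60 than at 40 days (2.06 ± 0.15 SE and 1.39 ± 0.30 SE, limma adjusted p = 2.7e-06 and 0.0025). For the first, the comparison is with 40-day values listed at 0, which show no scatter and can be failed estimates. The ID between them, VIT_18s0041g00590, was not a member and had 1.81 ± 0.478 FPKM at 80 days against 0.104 ± 0.0289 in 60-day fruit. It passed the filter on low values only through the 80-day libraries, so its difference is given without a test.

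VIT_10s0003g05430 and VIT_10s0003g05450, 2 places apart on chromosome 10, reached 14.8 ± 8.86 and 26.3 ± 5.47 FPKM in 80-day fruit. Before that the first did not pass 2.70 FPKM and the second 3.67, and the ID between them had 0.309 FPKM in 80-day fruit. VIT_00s0125g00190 and VIT_00s0125g00200, adjacent on unplaced sequence, reached 14.3 ± 4.12 and 8.01 ± 3.97 FPKM. Their 80-day libraries were in opposite order, with 10.2, 14.1 and 18.5 FPKM in libraries a, b and c for the first and 12.6, 5.93 and 5.51 for the second. Of the 26 other IDs within 3 places of the paired genes, 18 were tested, 1 was called higher at 80 than at 60 days and 4 lower, where 2.68% and 6.8% of all tested genes were. With 18 genes, nothing is read from these counts. The 1 called higher is VIT_18s0041g00590, which passed the filter on low values only through the 80-day libraries, so its call is set aside.

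**Figure D5:**
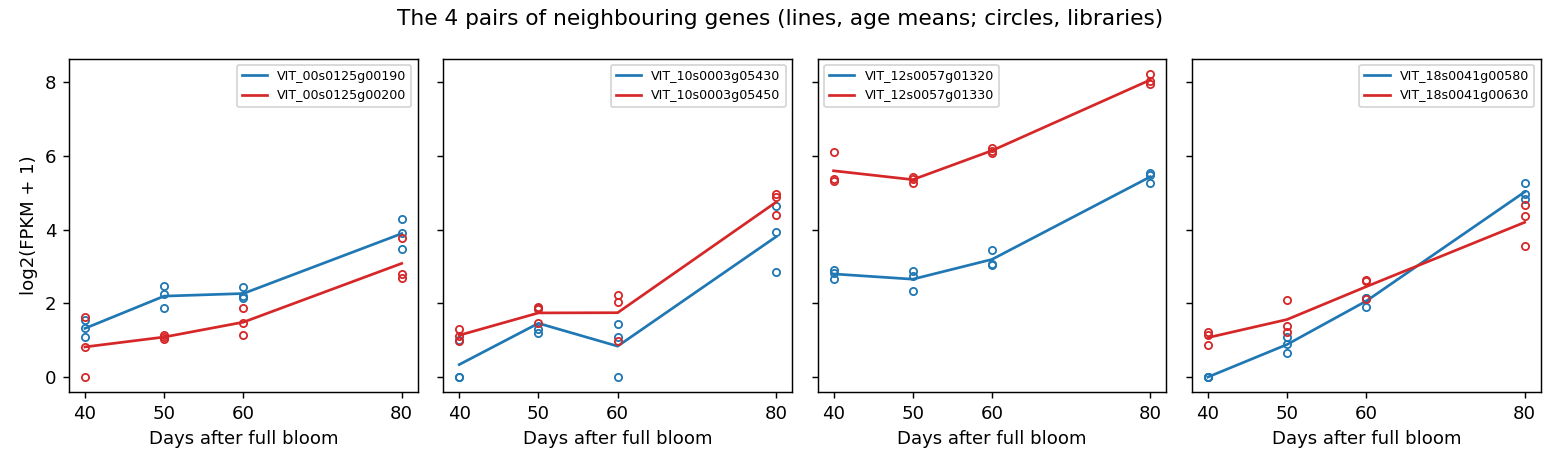
Each panel shows 1 pair of neighbouring members, with log2(FPKM + 1) against days after full bloom, circles for libraries and lines through the age means. The pair on chromosome 12 runs in parallel at separate levels, and the pair on chromosome 18 crosses between 60 and 80 days.

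The limit of 1.5 on the log2 scale had genes close to it on both sides. Just inside it were VIT_18s0001g15560 (1.504), VIT_06s0004g00240 (1.514) and VIT_05s0029g00240 (1.533). VIT_18s0001g15560 had means of 2.31 ± 0.653, 2.28 ± 0.298, 2.39 ± 0.198 and 8.67 ± 1.39 FPKM from 40 to 80 days. Just outside were VIT_13s0067g00330 (1.469), VIT_18s0041g01880 (1.465) and VIT_19s0015g01370 (1.441). The last of these had 32.3, 18.5, 6.12 and 87.4 FPKM as its means from 40 to 80 days, lowest at 60 days.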

How the data were processed

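Per the labels, polyadenylated RNA of Victoria fruit was made into directional libraries. The authors deposited 1 table of FPKM values for 22580 IDs in 12 libraries. Tools listed without roles by the submitters' processing notes are edgeR, Cufflinks, TopHat2, FastQC and Trimmomatic 0.36. The genome build and annotation were not given in these sources. No scaling between libraries beyond FPKM is recorded. All 12 columns were matched to samples by their descriptions (0 left over).

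From these values log2(FPKM + 1) was computed; the pseudocount of 1 understates changes of low genes. A count model was not run, as FPKM are not counts. A gene entered the test if 3 or more libraries reached 1 FPKM. The test was limma 3.58.1 (R 4.3.3, intensity trend, all 12 libraries, Benjamini-Hochberg over 14743 genes, adjusted p under 0.05, difference of at least 1). The fit was tested on simulated data. Python 3.11.15 with numpy 2.4.6, pandas 2.3.3 and matplotlib 3.10.9 was used. Precision is limited by 3 libraries per age; intervals from depth could not be given.

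Genes named in the text are the 8 largest steps, the 8 highest 80-day means, up to 4 called changes per direction at 50 against 40 and 60 against 50 days, the 2 most often at 0, and 3 each side of the 1.5 limit. Neighbouring pairs follow a distance of 3 places. Others, such as VIT_18s0001g11610, were named after their values were seen. Lists by product name could not be filled, since no ID has a name. The members and lists were chosen with earlier results of these data known. Alternatives were other pseudocounts, filters, scalings and thresholds, a replicate block, no trend, and each library left out.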

Additional observations from a re-analysis of the deposited data

How the results depend on the processing

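The number of genes meeting the rule was 76, and 42 with a pseudocount of 5 (all among the 76), 50 when library sums were set to 1000000 (all among the 76), 164 with a step of at least 1, 35 with at least 2, and 73 to 90 without single libraries. Scaling to that sum moved the median tested gene between 60 and 80 days to -0.13 on the log2 scale, against -0.01 as deposited. Median-of-ratios scaling gave 78 genes and a 10.8-fold summed FPKM of the 76 at 80 against 40 days, where deposited values gave 9.93-fold.

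A pseudocount of 5 left 6 members higher and 1 lower at 50 than at 40 days, 5 higher and 1 lower at 60 than at 50 days, and 14 higher and 2 lower at 60 than at 40 days, since it shrinks differences of low genes. At 60 against 50 days, 14 were higher with a pseudocount of 0.1, 19 higher and 5 lower with no minimum difference, and 1 lower without a filter. Falls in that interval numbered 1 to 4 without single libraries. Dropping both 40-day library c and 80-day library a, an alternative chosen after seeing the data, gave 5 members lower at 50 than at 40 days and 85 genes meeting the rule, of which 62 were among the 76. The cause of these moves, other than the pseudocount, was not tested. Shares of all tested genes called under these alternatives are not given here. The counts therefore do not show how the group then stood against all tested genes.

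No pairing by the letters a, b and c was seen: correlations of same-letter deviations between ages ran from -0.16 to 0.19. Those of different letters ran from -0.17 to 0.19. With 3 libraries per age this cannot exclude a shared source by letter. With the letter as a replicate block the counts of members called were 13, 9 and 25 higher in the 3 earlier comparisons, as without it. For that fit, too, the shares of all tested genes are not given. With adjacent IDs only, 4 members (5.26%, against 0.77% of tested genes) had a member as neighbour, and 10 (13.2%, against 6.19%) within 10 places. Of 36 named calls among earlier ages, none changed sign in 22 alternatives and 12 lost the call in at least 1. Depth is unknown, so values near 0 carry an error that cannot be stated.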

Other observations

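Some genes missed the group by a single criterion. With a step of at least 1.5 and no overlap with earlier libraries, 2 genes were left out for a mean of 1000 FPKM or more and 13 for a highest mean under 5 FPKM. Of the 2, which were singled out after their values were seen, VIT_15s0021g02700 had means of 79.8 ± 17.4, 680 ± 281, 725 ± 177 and 6143 ± 1056 FPKM from 40 to 80 days (SD, n = 3). VIT_06s0004g04650 had 430.3 ± 15.1, 735 ± 178, 775 ± 73.1 and 3198 ± 635 FPKM.

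A further 6 genes had the step and the level, but their 80-day libraries overlapped with earlier ones. VIT_15s0021g02400 was listed at 0 in all 9 earlier libraries and in library a in 80-day fruit, and at 47.6 and 45.7 FPKM in libraries b and c in 80-day fruit. VIT_19s0027g00970 was listed at 0 in each library except library c in 80-day fruit (61.8 FPKM). VIT_01s0010g02290 was at 4.48, 8.43 and 150 FPKM in libraries a, b and c of 80 days and VIT_02s0154g00480 at 1.85, 4.84 and 31.9, the same order of libraries as in 5 of the 6 members in which library c stood out. These genes too were singled out after their values were seen.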
